A study of Mus musculus with 9 samples.

Results

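A set of 10 genes of vitamin A (retinoid) metabolism and of the retinoic acid response, listed by symbol, was followed in sorted intestinal cells of mice with and without IκBα. They are Rbp2, Lrat, Rdh7, Dhrs3, Retsat, Aldh1a1, Aldh1a2, Rara, Rarb and Rxra, 10 of the 24421 genes counted. Of these 10 genes, 8 passed the filter on low counts that left 11577 genes for testing, and Aldh1a2 and Rarb did not. Intestinal cells were dissociated fresh from C57BL/6 mice at postnatal day 6, and polyadenylated RNA was sequenced after they had been sorted on EphB2, a receptor of the crypt base that is lost towards the villus. The 4 groups were wild-type (WT) EphB2-positive cells (n = 2), WT EphB2-negative cells (n = 2), EphB2-positive cells of IκBα knockout mice (KO, n = 3) and KO EphB2-negative cells (n = 2). IκBα, the product of Nfkbia, holds NF-κB dimers inactive in the cytoplasm. The labels do not give the knockout allele, whether every tissue carried it, or whether replicates came from separate animals. The p-values therefore measure only the spread between these samples, which may be technical.

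Vitamin A reaches the gut lumen as retinyl esters and carotenoids and enters the enterocyte as retinol. There it is bound by a carrier protein, esterified for export in chylomicrons, or oxidised in steps to retinaldehyde and then to retinoic acid. Retinoic acid is the ligand of nuclear receptors of the RAR family, which bind DNA as dimers with RXR proteins and switch target genes on or off. In the intestine it is known for guiding epithelial differentiation and for imprinting gut homing on lymphocytes.

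Depth was 1503972 to 2074076 reads in genes over the 9 libraries, and 3 reads correspond to 1.37 to 2.002 CPM (counts per 1000000 TMM-normalised reads) in a single library. Nfkbia had 47 to 163 reads in each WT library and 0 reads in every one of the 5 KO libraries. The replicates of WT EphB2-negative cells differed from each other more than any other pair, with a chi-square per degree of freedom of 24.2 against 1.93 to 4.32 for the other 5 pairs. Ephb2, the gene of the sort marker, had 142 and 160 CPM in WT and 171 to 183 CPM in KO EphB2-positive libraries. It had 125 and 66.8 CPM in WT EphB2-negative replicates 1 and 2, against 30.7 and 34.4 CPM in KO EphB2-negative libraries. The EphB2-negative groups thus differed in Ephb2 RNA, and the part of this in the results below was not tested. The absorptive enterocyte markers Alpi, Sis and Lct were detected in all 4 groups. In WT and KO EphB2-positive cells they had 349 and 97 (Alpi), 35 and 16 (Sis) and 70 and 8 reads (Lct) in all. In WT and KO EphB2-negative cells they had 2818 and 3234 (Alpi), 516 and 135 (Sis) and 2736 and 402 reads (Lct). Sis and Lct thus had fewer reads in KO EphB2-negative cells, unlike the marker sum that follows. The summed CPM of 25 enterocyte markers was 3789 and 5835 in WT EphB2-positive, 2677 to 2960 in KO EphB2-positive, 14860 and 35014 in WT EphB2-negative and 32550 and 46968 in KO EphB2-negative libraries. Of these 25 markers, 10 were lower and 1 was higher in KO among EphB2-positive cells, and 0 were lower and 6 higher among EphB2-negative cells. For these and the marker counts below, 8.07% of all genes tested were lower and 7.01% higher in KO EphB2-positive cells. In KO EphB2-negative cells 16.2% were lower and 13.7% higher. The sum of 11 pan-leukocyte markers was 63.6 to 65.8 CPM in WT and 92.8 to 112 CPM in KO EphB2-positive libraries, where the leukocyte gene Ptprc had 0 reads and 1 read in all. In EphB2-negative cells that sum was 127 and 1072 CPM in WT and 1270 and 1583 CPM in KO libraries. The sum of 18 stem cell markers was 5166 to 5626, 3015 to 4149, 799 to 2734 and 415 to 476 CPM in the same order of groups as the enterocyte sum. Olfm4 weighs heavily in it, with 13320 and 8886 reads in WT and KO EphB2-positive cells, against 417 and 350 for Lgr5. Of the 16 stem cell markers tested, 3 were higher and 1 lower in KO EphB2-positive cells, and 1 was higher and 9 lower in KO EphB2-negative cells. The sum of 14 enteroendocrine markers had lower values in KO than in WT libraries of each sort, at 816 and 1240 CPM in WT and 385 to 515 CPM in KO EphB2-positive libraries, and at 2821 and 6195 CPM in WT and 1604 and 2241 CPM in KO EphB2-negative ones. Of these 14 markers, 6 were lower and 0 higher in KO among EphB2-positive cells, and 3 were lower and 0 higher among EphB2-negative cells, while the reads of their first 3 members were 178 and 265 (Chga), 1148 and 1025 (Chgb) and 23 and 32 (Neurod1) in all in WT and KO EphB2-positive cells. The part of these cell type differences in the results below was not tested. In bulk RNA, fewer cells of a type and less RNA per cell cannot be told apart.

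Lrat, which esterifies retinol, Retsat, which saturates it, and Aldh1a1, which makes retinoic acid, were lower in KO than in WT in both sorts, and the receptor genes Rara and Rxra were lower among EphB2-positive cells. Among EphB2-positive cells, 5 of the 8 tested genes were lower in KO and 0 were higher, where 8.07% and 7.01% of all genes tested were lower and higher. Among EphB2-negative cells, 4 of 8 were lower and 0 higher, against 16.2% and 13.7% of all genes tested (1870 and 1586 genes by edgeR, and 1105 and 1446 by DESeq2). The median log2 fold change of the 8 genes was -0.91 in EphB2-positive and -1.02 in EphB2-negative cells, against -0.01 and -0.09 over all genes tested. The WT EphB2-negative libraries stood apart from each other, and without either one 7 genes were lower in EphB2-positive and 4 in EphB2-negative KO cells, with Rbp2 higher in EphB2-negative KO cells when replicate 2 was left out. Without WT EphB2-positive replicate 2 the count in EphB2-positive cells was 1, and it was 2 without WT EphB2-positive replicate 1 or KO EphB2-positive replicate 2. The count in EphB2-negative cells was 2 without KO EphB2-negative replicate 1. The libraries of KO and WT did not overlap for 7 of the 8 genes in EphB2-positive cells, all lower in KO, where 28.6% of all genes tested lay lower and 26.9% higher without overlap. In EphB2-negative cells they overlapped for 0 of 8 genes, with 5 lower and 3 higher in KO, against 34.6% and 28.7% of all genes tested.

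**Figure D1:**
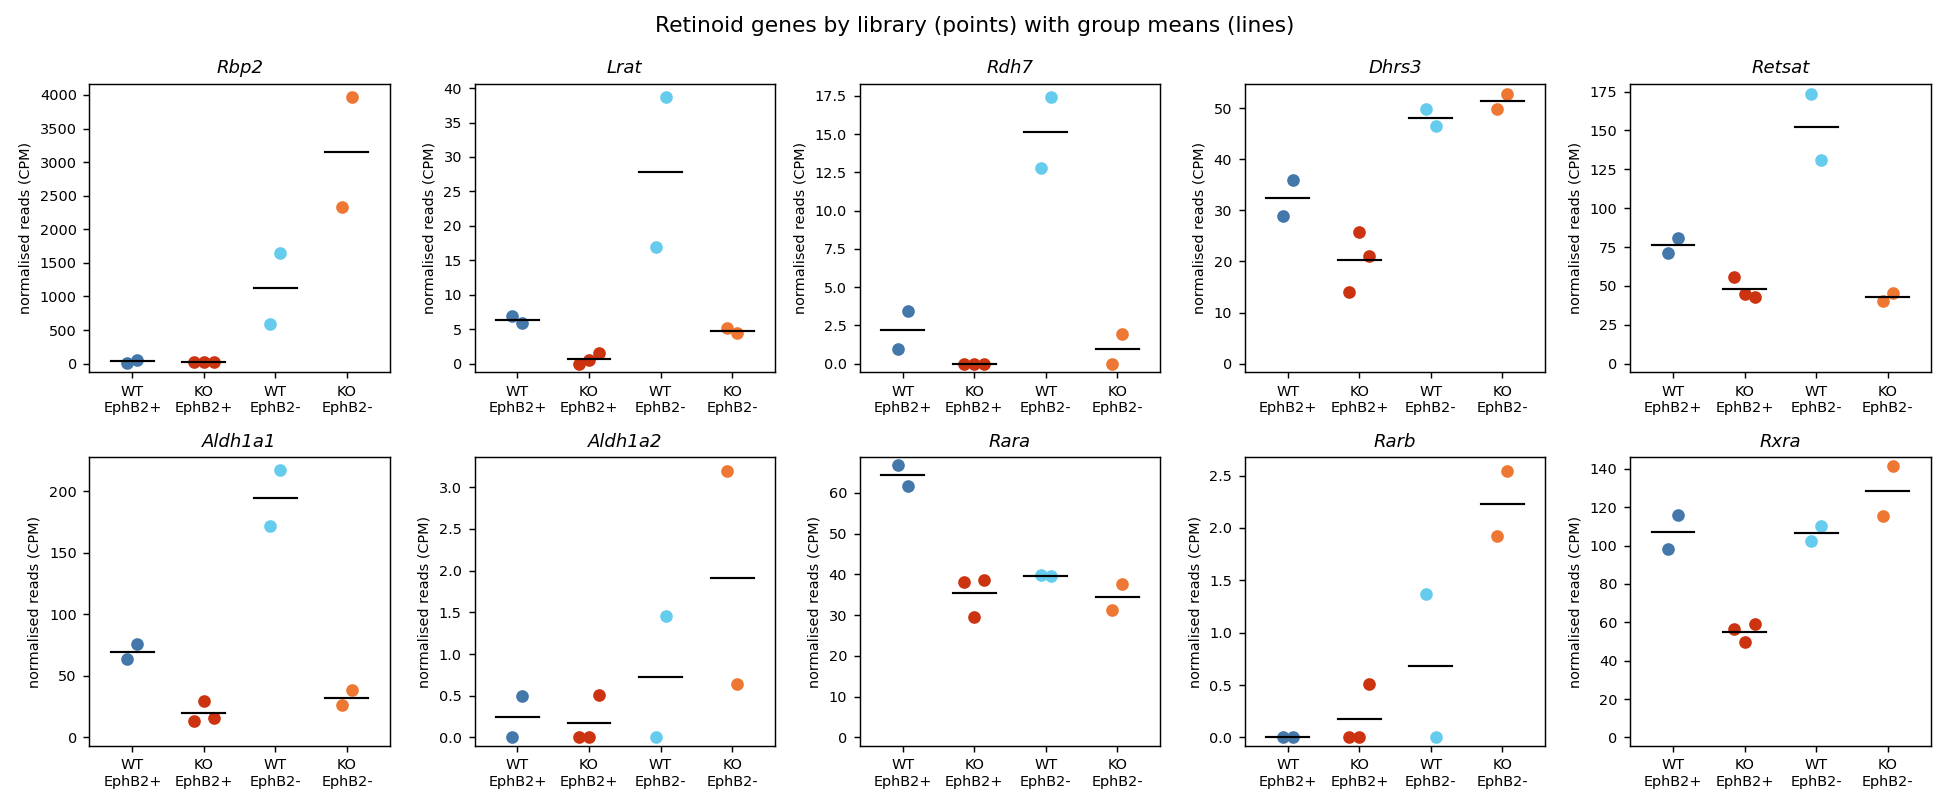
Normalised counts per 1000000 reads (CPM, linear axis from 0, a different scale for each gene) of the 10 genes in each of the 9 libraries, by group (WT or KO, EphB2-positive or EphB2-negative). Points are libraries and lines are group means; Aldh1a1 lies at 172 and 217 CPM in WT EphB2-negative libraries and at 26.2 and 38.2 CPM in KO ones, while Rbp2 has its 2 highest libraries in KO EphB2-negative cells.

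The 250 bases before the start of 6 genes are shown. They are the 4 genes lower in KO EphB2-negative cells (Aldh1a1, Lrat, Retsat and Rdh7), Rbp2, which was not lower, and Rarb, the textbook target of retinoic acid. The 4 were picked by that call, so their common direction there is no finding of its own. Each window lies before the RefSeq start (GRCm38.p6) nearest to that of the gene model. For Retsat, Rdh7, Rbp2 and Rarb this start is inside the model, and for Retsat, Rbp2 and Rarb it is the only start listed. The windows are printed 5′ to 3′ on the gene's strand. They lie at chr19:20492333-20492582 (plus strand) for Aldh1a1, chr3:82903975-82904224 (minus) for Lrat, chr6:72598352-72598601 (plus) for Retsat, chr10:127888734-127888983 (minus) for Rdh7, chr9:98490287-98490536 (plus) for Rbp2 and chr14:16575477-16575726 (minus) for Rarb. Capitals mark matches, on either strand, to 4 receptor half-sites (AGGTCA and the variants AGTTCA and GGTTCA and also GGGTCA), to their direct repeats spaced by 1, 2 or 5 bases (DR1, DR2, DR5), to the NF-κB consensus, to TGATAA and AGATAA (bound by GATA factors), TTTATG (CDX), CAAAGTCCA (HNF4) and the TATA motif TATAAA.
Aldh1a1: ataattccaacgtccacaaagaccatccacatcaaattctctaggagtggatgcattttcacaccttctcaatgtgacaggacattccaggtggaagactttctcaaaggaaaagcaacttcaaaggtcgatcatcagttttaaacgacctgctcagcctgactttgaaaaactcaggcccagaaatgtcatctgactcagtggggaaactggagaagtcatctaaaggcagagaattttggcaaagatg
Lrat: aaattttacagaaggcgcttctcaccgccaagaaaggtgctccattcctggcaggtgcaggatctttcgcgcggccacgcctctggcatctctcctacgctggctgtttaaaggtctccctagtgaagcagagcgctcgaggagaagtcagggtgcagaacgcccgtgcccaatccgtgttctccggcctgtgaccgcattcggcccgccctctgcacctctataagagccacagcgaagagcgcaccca
Retsat: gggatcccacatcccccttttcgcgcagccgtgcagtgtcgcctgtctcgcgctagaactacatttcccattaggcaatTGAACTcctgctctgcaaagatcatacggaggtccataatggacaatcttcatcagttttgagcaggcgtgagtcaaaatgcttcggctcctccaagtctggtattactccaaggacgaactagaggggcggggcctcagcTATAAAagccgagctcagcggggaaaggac
Rdh7: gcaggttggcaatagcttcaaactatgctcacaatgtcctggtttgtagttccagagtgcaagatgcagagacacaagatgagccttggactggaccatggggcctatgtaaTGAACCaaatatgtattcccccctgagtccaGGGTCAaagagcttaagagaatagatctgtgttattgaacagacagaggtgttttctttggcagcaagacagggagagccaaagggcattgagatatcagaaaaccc
Rbp2: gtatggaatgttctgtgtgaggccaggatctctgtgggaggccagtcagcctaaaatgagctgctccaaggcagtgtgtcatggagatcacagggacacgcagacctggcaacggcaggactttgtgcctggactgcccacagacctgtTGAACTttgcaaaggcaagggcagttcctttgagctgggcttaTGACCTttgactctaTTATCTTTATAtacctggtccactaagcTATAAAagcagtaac
Rarb: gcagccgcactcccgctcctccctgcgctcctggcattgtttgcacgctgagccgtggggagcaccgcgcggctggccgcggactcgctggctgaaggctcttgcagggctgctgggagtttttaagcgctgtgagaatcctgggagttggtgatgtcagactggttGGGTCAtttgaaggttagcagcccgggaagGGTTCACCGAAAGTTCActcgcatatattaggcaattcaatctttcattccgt
The Rarb window holds 1 DR5, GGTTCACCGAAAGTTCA, from base -53 to base -37 counted from the start, a motif found in 0.0888% of the 27025 RefSeq windows of this length, and its 2 half-sites are counted among the single half-sites too. The Rbp2 window holds AGTTCA at base -101 and AGGTCA at base -58, both on the opposite strand, AGATAA at -43 and TATAAA at -38, which overlap by 1 base on the opposite strand, and TATAAA at -15. Retsat has AGTTCA at -171 on the opposite strand and TATAAA at -30, and Rdh7 has GGTTCA at -138 on the opposite strand and GGGTCA at -107. None of the motifs searched is in the windows of Aldh1a1 and Lrat, nor in those of Aldh1a2, Dhrs3 and Rxra. Single half-sites are common: AGGTCA is in 13.8%, AGTTCA in 11.9%, GGTTCA in 8.87% and GGGTCA in 11.5% of all windows, and AGATAA and TATAAA are in 10.3% and 13% of them. The window of Rara holds 1 match to the NF-κB consensus, GGGATTCTCC, from base -227 to base -218, as do 3.75% of all windows. These are matches of letters, not measured binding. Of the 4 genes lower in KO EphB2-negative cells, 2 hold a half-site in this window and 2 do not. The share of all windows that hold any of the 4 half-sites was not computed. It cannot be below the largest single share, 13.8%, so the count of 2 has no background here and nothing is read from it.

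Rbp2 (chromosome 9, 98486115 to 98509781 on GRCm38, plus strand) encodes the retinol carrier of absorptive enterocytes, which hands retinol to the esterifying enzyme. It had 31 and 119 reads in WT EphB2-positive, 39, 49 and 43 in KO EphB2-positive, 1292 and 3417 in WT EphB2-negative and 3635 and 6235 in KO EphB2-negative libraries. Scaled, these were 15.2 and 58.7, then 26.0, 23.3 and 22.1, then 590 and 1654, and then 2326 and 3970 CPM. The EphB2-negative libraries were all above the EphB2-positive ones, and the KO EphB2-negative pair lay above the WT pair. In EphB2-negative cells the KO mean of 3148 ± 1163 CPM (SD, n = 2) stood against 1122 ± 752 CPM in WT (n = 2), which missed the threshold (log2 fold change 1.49 ± 0.61 (SE), adjusted p = 0.105). The log2 fold change was 0.93 without WT EphB2-negative replicate 1 (adjusted p = 0.368) and 2.41 without WT EphB2-negative replicate 2 (adjusted p = 0.048), and the test also passed without either WT EphB2-positive library (adjusted p = 0.049 in each case). In EphB2-positive cells the groups overlapped (log2 fold change -0.64 ± 0.65, adjusted p = 0.578). Per 1000 reads of the 25 enterocyte markers, a ratio chosen after the files were seen, Rbp2 had 39.7 and 47.2 reads in WT and 71.5 and 84.5 reads in KO EphB2-negative libraries, with no overlap.

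Lrat (chromosome 3, 82892579 to 82903973, minus strand) encodes lecithin:retinol acyltransferase, which makes retinyl esters from retinol bound to its carrier. It had 14 and 12 reads in WT EphB2-positive libraries and 0, 1 and 3 reads in KO ones, and 37 and 80 reads in WT EphB2-negative libraries against 8 and 7 reads in KO ones. The levels were 6.88 and 5.92 CPM against 0, 0.476 and 1.54 CPM, and 16.9 and 38.7 CPM against 5.12 and 4.46 CPM. Each KO library lay below each WT library of its sort. The log2 fold change was -3.05 ± 0.74 in EphB2-positive cells (adjusted p = 0.022) and -2.52 ± 0.59 in EphB2-negative cells (adjusted p = 0.0126), with few reads behind both. The call in EphB2-positive cells was lost without either WT EphB2-positive library and without KO EphB2-positive replicate 1 or 2 (adjusted p = 0.0585 to 0.124). That in EphB2-negative cells was lost without either KO EphB2-negative library (adjusted p = 0.0664 and 0.0931), and without WT EphB2-negative replicate 1 the log2 fold change there was -2.997 (adjusted p = 9.4e-05). With the EphB2-negative libraries fitted alone, the Lrat call in these cells was lost as well (edgeR adjusted p = 0.0821). Per 1000 enterocyte marker reads, Lrat had 1.82 and 1.01 reads in WT against 0, 0.171 and 0.576 in KO EphB2-positive libraries, and 1.14 and 1.11 against 0.157 and 0.0949 in EphB2-negative ones.

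Rdh7 (chromosome 10, 127884028 to 127888817, minus strand) belongs to the short-chain dehydrogenases that oxidise retinol to retinaldehyde. Its reads were 2 and 7 in WT EphB2-positive, 0 in each of the 3 KO EphB2-positive, 28 and 36 in WT EphB2-negative and 0 and 3 in KO EphB2-negative libraries. It was highest in WT EphB2-negative cells, at 12.8 and 17.4 CPM, and at or below 1.91 CPM in each of the 5 KO libraries. In EphB2-negative cells it was lower in KO (adjusted p = 0.0226), with a ratio of 0.0637 (95% interval of counting error 0.0128 to 0.195). That call was lost without KO EphB2-negative replicate 1 and with the EphB2-negative libraries fitted alone. In EphB2-positive cells KO libraries together lay at least 4.09-fold lower against a floor of 3 reads over the group, and the test did not pass (adjusted p = 0.0764), except without either WT EphB2-negative library (adjusted p = 0.0266 and 0.0286). Its transcript is 88.6% identical to that of Rdh1, 87.3% to Rdh9, 88.3% to Rdh16 and 88.1% to Rdh19 over the aligned bases, so reads may have been split between them. Rdh9 had 2 and 4 reads in WT against 8 and 11 reads in KO EphB2-negative libraries, and Rdh16 had 1 and 7 against 7 and 13 reads; both were too low to be tested.

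Dhrs3 (chromosome 4, 144892827 to 144928209, plus strand) encodes a reductase that turns retinaldehyde back into retinol and is itself induced by retinoic acid. It had 29.0 and 36.0 CPM in WT EphB2-positive libraries and 14.0, 25.7 and 21.1 CPM in KO ones. In EphB2-negative libraries it had 49.8 and 46.5 CPM in WT and 49.9 and 52.9 CPM in KO. The KO libraries were below the WT ones in EphB2-positive cells and level with them in EphB2-negative cells, and neither difference passed (log2 fold change -0.66 ± 0.24, adjusted p = 0.099, and 0.09 ± 0.25, adjusted p = 0.795). In EphB2-positive cells it passed without either WT EphB2-negative library (adjusted p = 0.0395 and 0.0371) and with the compared groups fitted alone (adjusted p = 0.0336).

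Retsat (chromosome 6, 72598475 to 72608425, plus strand) encodes retinol saturase, which makes dihydroretinol from retinol. It had 71.2 and 80.9 CPM in WT EphB2-positive libraries, 56.1, 44.8 and 42.7 CPM in their KO counterparts, 173 and 131 CPM in WT EphB2-negative and 40.3 and 45.2 CPM in KO EphB2-negative libraries. WT EphB2-negative libraries held the most, and the libraries of the KO sorts overlapped. In EphB2-negative cells Retsat was lower in KO (log2 fold change -1.83 ± 0.21, adjusted p = 5.4e-04), with means of 42.8 ± 3.47 CPM in KO and 152 ± 29.9 CPM in WT. This call held under all 15 alternatives, with log2 fold change -1.61 without WT EphB2-negative replicate 1. The fall in EphB2-positive cells was 0.68 ± 0.18, to 47.8 ± 7.20 from 76.1 ± 6.84 CPM (log2 fold change -0.68, adjusted p = 0.0358). This smaller call was lost without either WT EphB2-positive library, without KO EphB2-positive replicate 2 or 3 and without either KO EphB2-negative library (adjusted p = 0.0602 to 0.230), and with DESeq2 (adjusted p = 0.0914). Per 1000 enterocyte marker reads, Retsat had 18.8 and 13.9 reads in WT and 18.9, 16.1 and 15.9 reads in KO EphB2-positive libraries, which overlapped, and 11.7 and 3.75 against 1.24 and 0.963 reads in EphB2-negative ones, which did not. A gene model on the other strand shares 650 exonic bases with Retsat, and the strand setting of the counting is not given in the sources used here.

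Aldh1a1 (chromosome 19, 20492715 to 20643465, plus strand) encodes a retinaldehyde dehydrogenase, the enzyme of the last and irreversible step to retinoic acid. It had 130 and 153 reads in WT EphB2-positive, 20, 62 and 31 in KO EphB2-positive, 376 and 449 in WT EphB2-negative and 41 and 60 in KO EphB2-negative libraries. The levels were 63.9 and 75.5, then 13.3, 29.5 and 15.9, then 172 and 217, and then 26.2 and 38.2 CPM. Every KO library, of either sort, lay below every WT library of either sort. Aldh1a1 fell from 69.7 ± 8.22 to 19.6 ± 8.69 CPM in EphB2-positive cells (log2 fold change -1.80 ± 0.30, adjusted p = 0.00399) and from 194 ± 32.3 to 32.2 ± 8.47 CPM in EphB2-negative cells (log2 fold change -2.59 ± 0.32, adjusted p = 8.4e-04). Both calls held under all 15 alternatives run for each of them, with adjusted p up to 0.0476 and 0.0409, and without WT EphB2-negative replicate 1 the log2 fold change in EphB2-negative cells was -2.75. Per 1000 enterocyte marker reads it had 16.9 and 12.9 reads in WT against 4.51, 10.6 and 5.95 in KO EphB2-positive libraries, and 11.6 and 6.21 against 0.806 and 0.813 in EphB2-negative ones. Its transcript is 90.3% identical over 2011 aligned bases to that of Aldh1a7, its neighbour on the chromosome, which was lower in KO as well (below), so a share of the reads of each may belong to the other.

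Aldh1a2 (chromosome 9, 71215789 to 71296243, plus strand), the main retinoic acid synthase of the embryo and of dendritic and stromal cells of the gut, was at or near 0. It had 0 and 1 reads in WT EphB2-positive, 0, 0 and 1 in KO EphB2-positive, 0 and 3 in WT EphB2-negative and 5 and 1 in KO EphB2-negative libraries. With these reads it was not tested, and its ratio of KO to WT in EphB2-negative cells was 2.72 (95% interval of counting error 0.580 to 16.8). The summed markers of dendritic cells and macrophages were 6.88 to 8.88, 200 to 466, 37.9 to 598 and 1001 to 1698 CPM in the same order of groups, and the defining dendritic marker Itgax had 0 reads in all 5 EphB2-positive libraries and 121 and 195 reads in WT and KO EphB2-negative cells. Flt3 had 0 reads in EphB2-positive cells and 6 and 24 reads in WT and KO EphB2-negative cells. Xcr1 went the other way there, with 17 and 6 reads, and had 3 and 5 reads in WT and KO EphB2-positive cells. The higher sum in KO EphB2-positive libraries thus came without reads of Itgax or Flt3. The sum of 13 stromal markers was 16.7 to 64.6 CPM in WT and 15.3 to 115 CPM in KO EphB2-positive libraries. In EphB2-negative libraries it was 16.9 to 128 CPM in WT and 345 to 349 CPM in KO. The part of either cell type in the Aldh1a2 reads was not tested.

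Of the receptors, Rara (chromosome 11, 98927818 to 98974942, plus strand) encodes RARα, which binds retinoic acid. It had 66.8 and 61.7 CPM in WT EphB2-positive libraries, and 38.0, 29.5 and 38.6 CPM in their KO counterparts, 39.7 and 39.7 CPM in WT EphB2-negative and 31.4 and 37.6 CPM in KO EphB2-negative ones. The WT EphB2-positive pair stood above the other 7 libraries. In EphB2-positive cells Rara fell by 0.86 ± 0.18 on the log2 scale in KO (adjusted p = 0.0105), and in EphB2-negative cells the log2 fold change was -0.20 ± 0.20 (adjusted p = 0.472). The call was lost without either WT EphB2-positive library (adjusted p = 0.0997 and 0.063) and without KO EphB2-positive replicate 2 (adjusted p = 0.0538). Per 1000 enterocyte marker reads the EphB2-positive groups overlapped, at 17.6 and 10.6 in WT and 12.8, 10.6 and 14.4 in KO.

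Rxra (chromosome 2, 27676440 to 27762957, plus strand) encodes RXRα, the shared dimer partner of retinoic acid, thyroid hormone, vitamin D, bile acid, oxysterol and fatty acid receptors. It had 98.2 and 116 CPM in WT EphB2-positive libraries, 56.7, 49.5 and 59.1 CPM in their KO counterparts, 102 and 110 CPM in WT EphB2-negative and 115 and 141 CPM in KO EphB2-negative libraries. The 3 KO EphB2-positive libraries lay below the other 6. In EphB2-positive cells Rxra fell from 107 ± 12.5 to 55.1 ± 4.998 CPM in KO (log2 fold change -0.96 ± 0.16, adjusted p = 0.00366), a call lost without WT EphB2-positive replicate 2 (adjusted p = 0.0519). In EphB2-negative cells the KO mean of 128 ± 18.5 CPM against 106 ± 5.71 CPM did not pass (log2 fold change 0.27 ± 0.17, adjusted p = 0.245). Per 1000 enterocyte marker reads Rxra had 25.9 and 19.9 reads in WT and 19.2, 17.8 and 22.1 reads in KO EphB2-positive libraries, which overlapped. In EphB2-negative libraries it had 6.88 and 3.15 reads in WT and 3.54 and 3.01 reads in KO on this scale. Between the WT sorts this ratio thus fell while the CPM of Rxra stayed level. Enterocyte markers and Rxra were thus both lower in KO among EphB2-positive cells, and the part of the former in the latter was not tested.

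Rarb (chromosome 14, 16430839 to 16819156, minus strand) encodes RARβ, whose own promoter carries the DR5 shown above and which is a standard readout of retinoic acid signalling. It had 0 reads in both WT EphB2-positive libraries, 0, 0 and 1 in KO EphB2-positive, 3 and 0 in WT EphB2-negative and 3 and 4 in KO EphB2-negative libraries, and was not tested. Rarb shares 1793 exonic bases with Top2b on the other strand, so even these reads may not be its own.

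**Figure D2:**
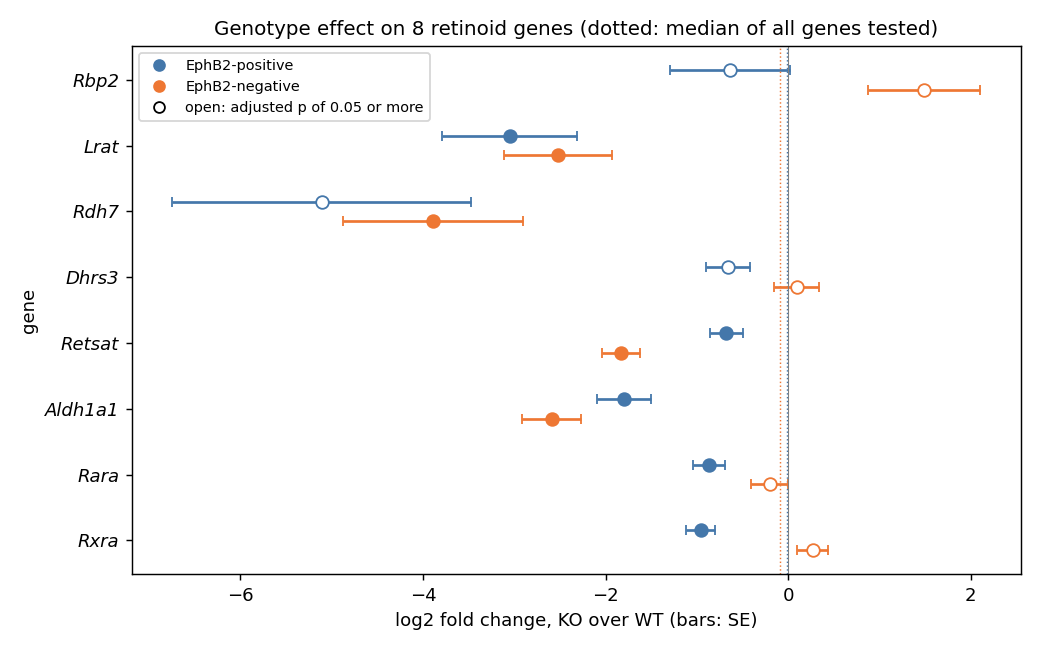
Log2 fold change of KO over WT (points, bars are SE) for the 8 tested genes in EphB2-positive (blue) and EphB2-negative (orange) cells, filled where the adjusted p is under 0.05, with the median of all genes tested as dotted lines. Lrat, Retsat and Aldh1a1 are filled and left of 0 in both sorts, Rara and Rxra are filled in EphB2-positive cells, and Rdh7 in EphB2-negative cells; the fitted value of Rdh7 in EphB2-positive cells, where KO has 0 reads, depends on the prior count.

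Whether the effect of genotype differed between the sorts was tested directly as the log2 fold change in EphB2-positive minus that in EphB2-negative cells. It differed for 2 of the 8 genes, 1 higher and 1 lower, where 6.54% of all genes tested were higher and 5.81% lower. The fall of Retsat was smaller in EphB2-positive cells (difference 1.16 ± 0.28, adjusted p = 0.0289), a call lost under 8 of 15 alternatives. Rxra fell in EphB2-positive but not, by the test, in EphB2-negative cells, and that difference was -1.23 ± 0.23 (adjusted p = 0.0145). For Rara the difference of -0.66 ± 0.27 did not pass (adjusted p = 0.132), nor did those of Rbp2 (-2.13 ± 0.89, adjusted p = 0.156, passing under 1 of 15 alternatives), Dhrs3 (-0.75 ± 0.35, adjusted p = 0.171) and Aldh1a1 (0.79 ± 0.44, adjusted p = 0.254). The median difference of the 8 genes was -0.71, against 0.06 over all genes tested. The Retsat difference was lost without any 1 of the 7 libraries outside WT EphB2-negative cells (adjusted p = 0.0527 to 0.101), and the Rxra difference without WT EphB2-positive replicate 2 (adjusted p = 0.0743) or KO EphB2-negative replicate 2 (adjusted p = 0.0786).

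**Figure D3:**
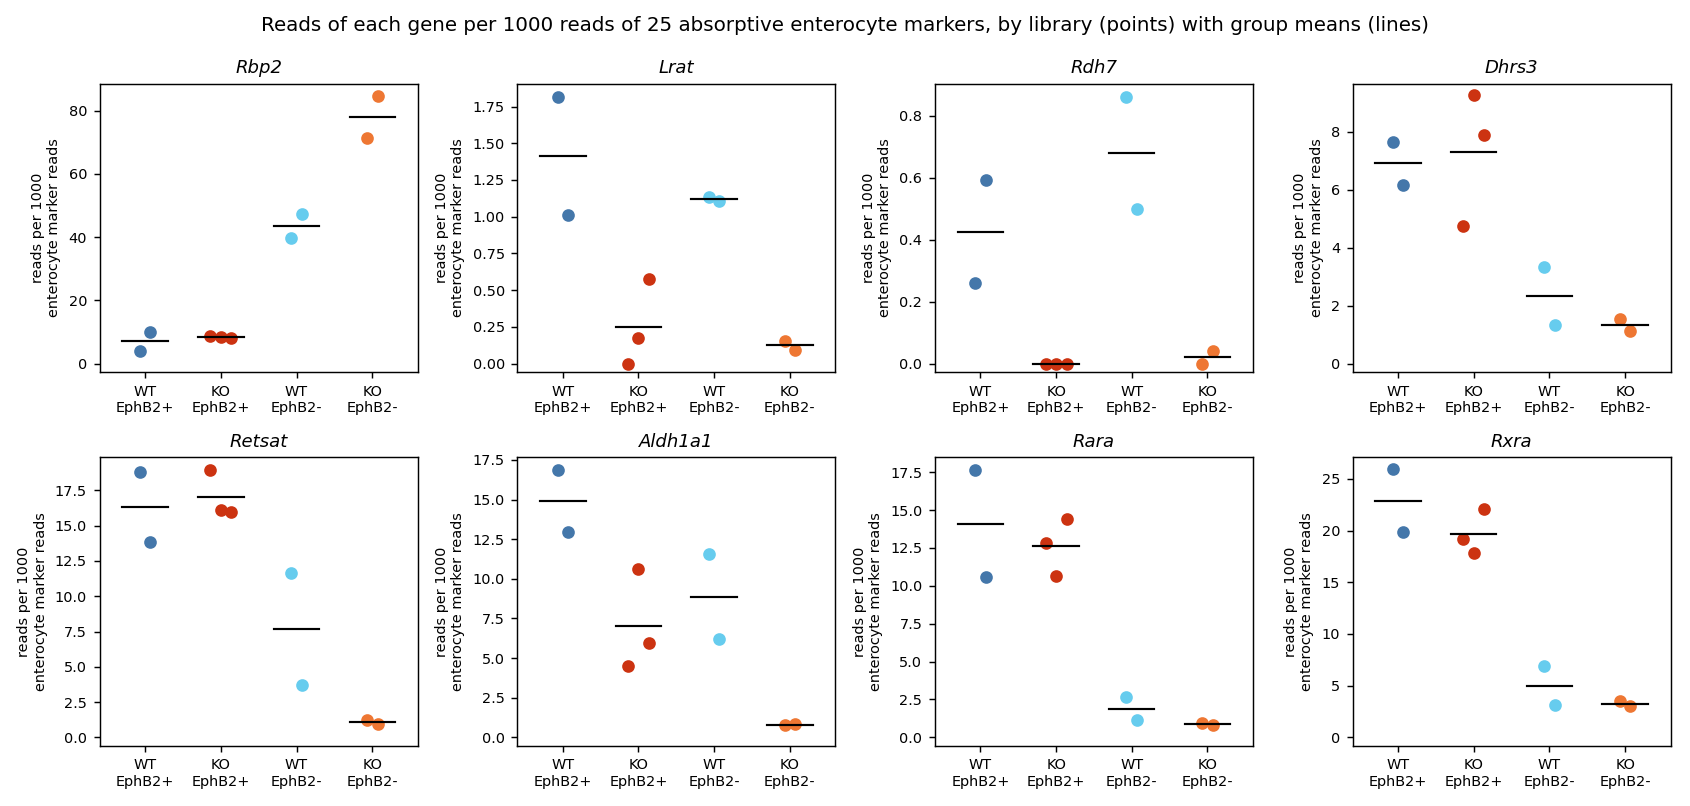
Reads of the 8 tested genes per 1000 reads of 25 absorptive enterocyte markers in each library (linear axis from 0, a different scale for each gene), with group means as lines; a description with no test. For Lrat and Aldh1a1 the KO libraries lie below the WT libraries of the same sort, whereas for Retsat, Rara and Rxra the EphB2-positive KO and WT libraries overlap.

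The sorts were then compared within each genotype, EphB2-positive over EphB2-negative. The EphB2-negative sort also held cells other than villus epithelium. The sum of 7 mast cell markers was 234 and 1363 CPM in WT and 784 and 907 CPM in KO EphB2-negative libraries. In EphB2-positive libraries it was 9.34 to 23.6 CPM. The comparison thus does not give a position along the crypt to villus axis alone, and the part of cell types in it was not tested. Among WT cells 3 of the 8 genes were lower in EphB2-positive cells and 0 were higher, where 3.77% and 0.656% of all genes tested were lower and higher. Rbp2 was lower by 4.92 ± 0.73 (log2 fold change -4.92, adjusted p = 0.0229), Aldh1a1 by 1.48 ± 0.30 (log2 fold change -1.48, adjusted p = 0.0327) and Retsat was lower too (log2 fold change -1.002 ± 0.19, adjusted p = 0.0295). Lrat and Rdh7 had log2 fold changes of -2.11 ± 0.55 (adjusted p = 0.0591) and -2.73 ± 0.83 (adjusted p = 0.0899). Rara leaned the other way at 0.69 ± 0.19 (adjusted p = 0.0647), and Rxra stood level at 0.01 ± 0.17 (adjusted p = 0.974). The median of the 8 genes was -1.24, against -0.02 over all genes tested. These WT calls were not stable. By edgeR 0 genes were called without WT EphB2-positive replicate 1 or 2 or KO EphB2-positive replicate 1 or 3, though 5 to 7 had an unadjusted p under 0.05 in those fits, and DESeq2 on all libraries called 3. There was 1 call without KO EphB2-positive replicate 2 or either KO EphB2-negative library, and Rbp2 was lost without WT EphB2-negative replicate 2 (adjusted p = 0.0687). Without WT EphB2-negative replicate 1 there were 6 calls, when Lrat (adjusted p = 8.9e-05), Rdh7 (adjusted p = 0.00568) and Rara (log2 fold change 0.69, adjusted p = 0.0208) passed too.

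Among KO cells 4 of the 8 genes were lower in EphB2-positive cells and 0 were higher, where 29.2% and 26.4% of all genes tested were lower and higher. They were Rbp2 (log2 fold change -7.05 ± 0.67, adjusted p = 1.6e-04), Lrat (-2.63 ± 0.80, adjusted p = 0.0181), Dhrs3 (-1.32 ± 0.24, adjusted p = 0.0013) and Rxra (-1.22 ± 0.16, adjusted p = 2.3e-04). Aldh1a1 and Retsat, which were lower in WT EphB2-positive than EphB2-negative cells, had log2 fold changes of -0.69 ± 0.33 (adjusted p = 0.0981) and 0.15 ± 0.20 (adjusted p = 0.524) in KO. The change of this sort effect with genotype is the same quantity as the difference tested above. The median of the 8 genes was -1.27, against -0.02 over all genes tested. Lrat was lost without KO EphB2-positive replicate 2 (adjusted p = 0.0608) or either KO EphB2-negative library (adjusted p = 0.0745 and 0.058), and Aldh1a1 passed without KO EphB2-positive replicate 2 (log2 fold change -1.13, adjusted p = 0.0109).

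**Figure D4:**
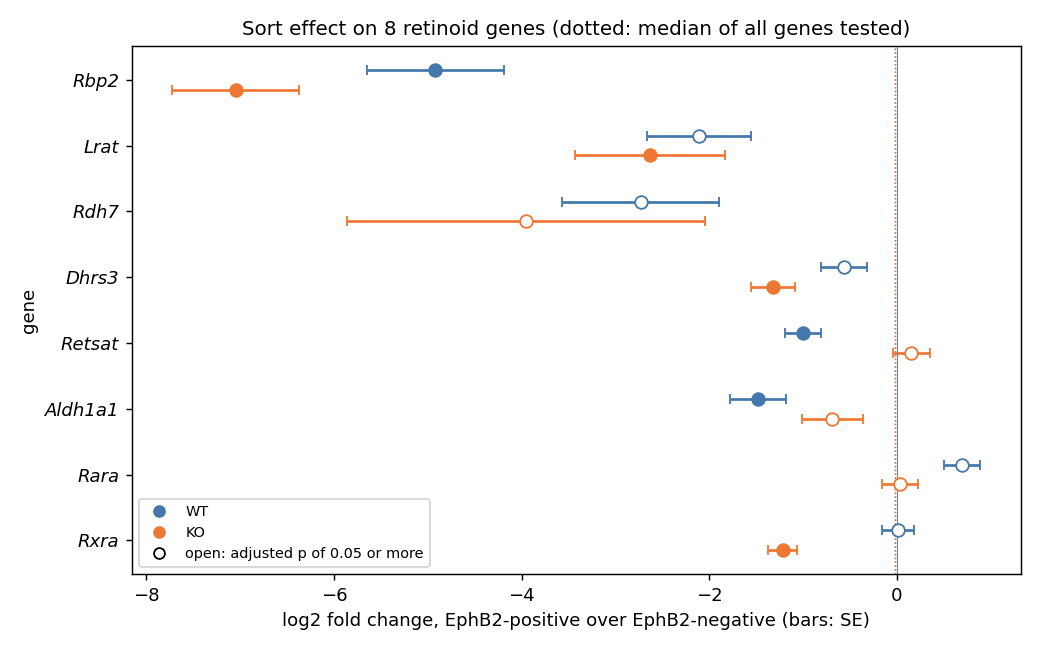
Log2 fold change of EphB2-positive over EphB2-negative cells (points, bars are SE) for the 8 tested genes in WT (blue) and KO (orange), filled where the adjusted p is under 0.05, with the median of all genes tested as dotted lines. Rbp2 is filled and furthest left in both genotypes; Aldh1a1 and Retsat are filled in WT, and Lrat, Dhrs3 and Rxra in KO.

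Per kilobase of exon, Rbp2 had the highest level of the 10 genes in all 4 groups, from 24.8 ± 2.08 CPM per kb in KO EphB2-positive to 3272 ± 1209 in KO EphB2-negative cells; in WT EphB2-positive cells its replicates spread too far (38.4 ± 32.0) to be set above the next gene. In WT EphB2-negative cells Retsat (43.1 ± 8.46 CPM per kb) and Aldh1a1 (39.4 ± 6.54) followed within each other's spread, then Rxra (19.5 ± 1.05) and Dhrs3 (16.4 ± 0.798), then Rara (9.10 ± 0.00587) and Rdh7 (9.00 ± 1.95), which did not differ beyond their spread, and Lrat (5.20 ± 2.88). In KO EphB2-negative cells the order after Rbp2 was Rxra (23.5 ± 3.39), Dhrs3 (17.6 ± 0.712) and Retsat (12.1 ± 0.980). Rara (7.89 ± 1.01) and Aldh1a1 (6.53 ± 1.71) followed within each other's spread, with Lrat (0.895 ± 0.0874) and Rdh7 (0.569 ± 0.805) below 1 CPM per kb. Aldh1a1 thus stood above Rxra and Rara in WT and below Rxra in KO EphB2-negative cells, on this scale. In EphB2-positive cells Retsat (21.5 ± 1.94) and Rxra (19.6 ± 2.29) were within each other's spread in WT, as were Rara (14.7 ± 0.833) and Aldh1a1 (14.1 ± 1.66).

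The rest of the retinoid pathway was taken as 77 further genes, 75 of them in the files and 48 tested. Among EphB2-positive cells 4 of the 48 were higher and 11 lower in KO, where 7.01% and 8.07% of all genes tested were higher and lower, with a median log2 fold change of -0.39, and among EphB2-negative cells 5 were higher and 10 lower, where 13.7% and 16.2% of all genes tested were higher and lower, with a median of -0.01. Of 7 carriers and uptake proteins tested, 3 were lower and 0 higher in KO in each sort, where 8.07% and 16.2% of all genes tested were lower. Ttr, transthyretin, which binds the retinol-binding protein in blood, fell from 25.6 ± 2.86 to 1.96 ± 1.43 CPM in EphB2-positive cells (adjusted p = 0.00176) and from 66.9 ± 30.0 to 8.62 ± 3.19 CPM in EphB2-negative cells (adjusted p = 0.00245). Stra6l, a receptor for retinol-binding protein, fell from 101 ± 19.9 to 30.0 ± 5.19 CPM (adjusted p = 0.00129) and from 106 ± 29.6 to 45.3 ± 7.07 CPM (adjusted p = 0.00755). Fabp5, which carries retinoic acid and fatty acids to PPARδ, was the third (adjusted p = 0.0256 and 0.0426). Its calls were lost under 6 and 12 of 15 alternatives, and without WT EphB2-negative replicate 1 its log2 fold change in EphB2-negative cells was -0.51 (adjusted p = 0.331) in place of -1.40. Stra6l was lost in EphB2-negative cells without KO EphB2-negative replicate 1 (adjusted p = 0.0568).

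Of the enzymes that interconvert retinol and retinaldehyde, 2 of 10 tested were higher and 2 lower in KO EphB2-positive cells, and 0 were higher and 3 lower in EphB2-negative cells. The shares of all genes tested were 7.01% higher and 8.07% lower in EphB2-positive cells, and 13.7% and 16.2% in EphB2-negative cells. Sdr16c5, a retinol dehydrogenase, had 12 and 14 reads in WT and 0 reads in each of the 3 KO EphB2-positive libraries, at least 11.8-fold lower against the floor (adjusted p = 0.00599). In EphB2-negative cells Sdr16c5 had 26 and 33 reads in WT and 0 and 1 in KO (ratio 0.0230, 95% interval of counting error 5.7e-04 to 0.133, adjusted p = 0.00551). Dhrs4, a retinaldehyde reductase, fell from 211 ± 5.62 to 75.7 ± 3.94 CPM in EphB2-positive (adjusted p = 0.00226) and from 189 ± 70.6 to 74.0 ± 16.0 CPM in EphB2-negative cells (adjusted p = 0.00476). Adh1, an alcohol dehydrogenase that oxidises retinol, was lower in KO EphB2-negative cells (adjusted p = 0.0383) and missed the threshold in EphB2-positive ones, and its difference between the sorts did not pass (adjusted p = 0.617). Rdh11, a retinaldehyde reductase, rose from 26.8 ± 0.430 to 54.7 ± 2.17 CPM in EphB2-positive cells (adjusted p = 0.00472), with 28.7 ± 3.84 and 28.4 ± 3.06 CPM in EphB2-negative cells (difference between the sorts 1.04 ± 0.27, adjusted p = 0.0344). Rdh13 rose to 59.8 ± 4.92 from 33.5 ± 6.37 CPM in EphB2-positive cells (adjusted p = 0.0206). Among these calls, those of Adh1 and of the Rdh11 difference were each lost under 10 of 15 alternatives (adjusted p up to 0.170 and 0.130) and that of Rdh13 under 6, without each EphB2-positive library among them (adjusted p up to 0.191). Rdh11 in EphB2-positive cells was lost without WT EphB2-positive replicate 1 (adjusted p = 0.053). Of 3 further genes listed under retinoic acid synthesis, Aldh1a7 alone was tested, and it fell from 46.3 ± 4.04 to 10.3 ± 3.25 CPM in EphB2-positive (adjusted p = 9.6e-04) and from 61.4 ± 5.52 to 11.2 ± 4.02 CPM in EphB2-negative cells (adjusted p = 7.8e-04). It was listed there as a relative of Aldh1a1, and whether its product makes retinoic acid was not tested. Of the retinoic acid hydroxylases, Cyp26a1 and Cyp26c1 had 0 reads in all 9 libraries, and Cyp26b1 had 1 and 4 reads in KO EphB2-negative libraries and 0 in the others.

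Among ester and carotenoid genes, Dgat1, Bco2 and Isx were the ones whose genotype effect differed between the sorts. Dgat1, which esterifies diacylglycerol and also retinol, fell from 149 ± 31.8 to 69.1 ± 5.88 CPM in KO EphB2-positive cells (adjusted p = 0.00302). In EphB2-negative cells it rose from 222 ± 9.16 to 652 ± 101 CPM (adjusted p = 6.8e-04), and the difference between the sorts was -2.66 ± 0.26 (adjusted p = 0.0048). Lrat, the other retinol esterifying enzyme, was lower in KO in both sorts, as given above. Lipe, a lipase that acts on retinyl esters, was higher in KO EphB2-negative cells (38.0 ± 3.93 against 16.0 ± 1.32 CPM, adjusted p = 0.0245), and the carboxylesterase Ces1e was lower there (1.60 ± 0.446 against 7.46 ± 3.02 CPM, adjusted p = 0.0422). In all, 2 of 5 tested ester genes were higher and 1 lower in KO EphB2-negative cells, and 0 and 1 in EphB2-positive cells. Of all genes tested, 13.7% were higher and 16.2% lower in KO EphB2-negative cells, and 7.01% and 8.07% in EphB2-positive cells. Bco2, a carotenoid dioxygenase, rose from 32.3 ± 15.3 to 98.9 ± 21.3 CPM in KO EphB2-negative cells (adjusted p = 0.00472), with a difference between the sorts of -2.14 ± 0.46 (adjusted p = 0.0203). Isx, a homeobox repressor of carotenoid uptake that retinoic acid induces, differed between the sorts by -0.73 ± 0.19 (adjusted p = 0.0349), without passing in EphB2-positive (174 ± 13.4 in WT and 136 ± 4.30 CPM in KO, adjusted p = 0.0855) or EphB2-negative cells (177 ± 5.97 and 229 ± 7.35 CPM, adjusted p = 0.0688). The Ces1e call was lost under 12 of 15 alternatives (adjusted p = 0.168 without WT EphB2-negative replicate 1), the Isx difference under 10, the Lipe call without either KO EphB2-negative library, and the Bco2 call in EphB2-negative cells without KO EphB2-negative replicate 2. The Bco2 difference was lost under 6 of 15 alternatives, without any 1 of the 5 EphB2-positive libraries or KO EphB2-negative replicate 2 (adjusted p up to 0.0925). The enterocyte markers had more genes lower in KO EphB2-positive and higher in KO EphB2-negative cells, as given above, and their part in these differences was not tested.

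Among other retinoid receptors and RXR partners, 1 of 10 tested was higher and 4 lower in KO EphB2-positive cells, and 1 was higher and 2 lower in EphB2-negative cells. The shares of all genes tested were 7.01% higher and 8.07% lower in EphB2-positive cells, and 13.7% and 16.2% in EphB2-negative cells. The thyroid hormone receptors were lower in both sorts: Thra stood at 40.4 ± 1.75 against 152 ± 7.77 CPM in EphB2-positive cells (adjusted p = 1.4e-04), and was 64.8 ± 6.09 against 114 ± 17.9 CPM in EphB2-negative cells (adjusted p = 0.00709). Its fall was larger in EphB2-positive cells (difference -1.10 ± 0.23, adjusted p = 0.0183). Thrb fell to 24.9 ± 6.25 from 55.9 ± 4.70 CPM (adjusted p = 0.00716) and to 19.8 ± 3.54 from 53.9 ± 6.42 CPM (adjusted p = 0.00419). Ppara and Nr1h3, which sense fatty acids and oxysterols, were lower in KO EphB2-positive cells (adjusted p = 0.00917 and 0.0142), and their differences between the sorts did not pass (adjusted p = 0.0872 and 0.0644). Ppard, the receptor that Fabp5 feeds, was higher in KO in both sorts, at 84.2 ± 9.42 against 39.1 ± 2.56 CPM (adjusted p = 0.0109) in EphB2-positive cells and 131 ± 14.0 against 35.5 ± 13.4 CPM (adjusted p = 9.6e-04). Without WT EphB2-positive replicate 2 the EphB2-positive calls of Thrb, Ppara, Nr1h3 and Ppard were lost (adjusted p up to 0.110), and those of Nr1h3 and Ppard also without replicate 1. That of Nr1h3 was lost under 4 of 15 alternatives in all, without KO EphB2-positive replicate 2 among them. The EphB2-negative call of Thra was lost without KO EphB2-negative replicate 2, and its difference without either WT EphB2-positive library, KO EphB2-positive replicate 2 or either KO EphB2-negative library (adjusted p up to 0.0889). Rarg, the third RAR, had 3.20 ± 1.75 against 0.724 ± 0.280 CPM in WT and KO EphB2-positive cells and did not pass (adjusted p = 0.107), and Rxrb had 75.1 ± 1.97 against 65.4 ± 6.27 CPM (adjusted p = 0.627).

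Of the receptor coregulators, 1 of 11 tested, the corepressor exchange factor Tbl1xr1, was higher in KO EphB2-positive cells (81.4 ± 1.89 against 48.5 ± 3.68 CPM, adjusted p = 0.00796), a call lost without WT EphB2-positive replicate 2 (adjusted p = 0.0819). In EphB2-negative cells 0 of 11 passed by edgeR and 0 by DESeq2, with 1 at an unadjusted p under 0.05 by each, Ncoa1 by edgeR (adjusted p = 0.0506). Of 11 genes known to be induced by retinoic acid, 6 were tested, among them Dhrs3 and Lrat. Of all genes tested, 7.01% were higher and 8.07% lower in KO EphB2-positive cells, and 13.7% and 16.2% in KO EphB2-negative cells. In KO EphB2-positive cells 0 of the 6 induced genes were higher and 1, Lrat, was lower. In KO EphB2-negative cells 1 was higher, Tgm2, which encodes transglutaminase 2 (514 ± 83.9 against 249 ± 139 CPM, adjusted p = 0.0416), a call lost under 10 of 15 alternatives, with a log2 fold change of 1.77 without WT EphB2-negative replicate 1 in place of 1.04, and 1, Lrat, was lower. Within the WT sort comparison, 1 of the 48 pathway genes passed, where 3.77% of all genes tested were lower, and this was the bile acid receptor Nr1h4, lower in EphB2-positive cells (52.7 ± 3.64 against 170 ± 83.8 CPM, adjusted p = 0.025). In KO 5 of 48 were higher and 21 lower in EphB2-positive cells, where 26.4% and 29.2% of all genes tested were higher and lower. Of the 15 pathway genes called in EphB2-positive KO against WT, 7 (Aldh1a7, Dgat1, Dhrs4, Sdr16c5, Stra6l, Thra and Ttr) passed under all 15 alternatives. Of the 15 called in EphB2-negative cells, 0 passed under all 15: with the EphB2-negative libraries fitted alone, a fit that called 149 of 11052 genes, 0 of the 15 passed.

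**Figure D5:**
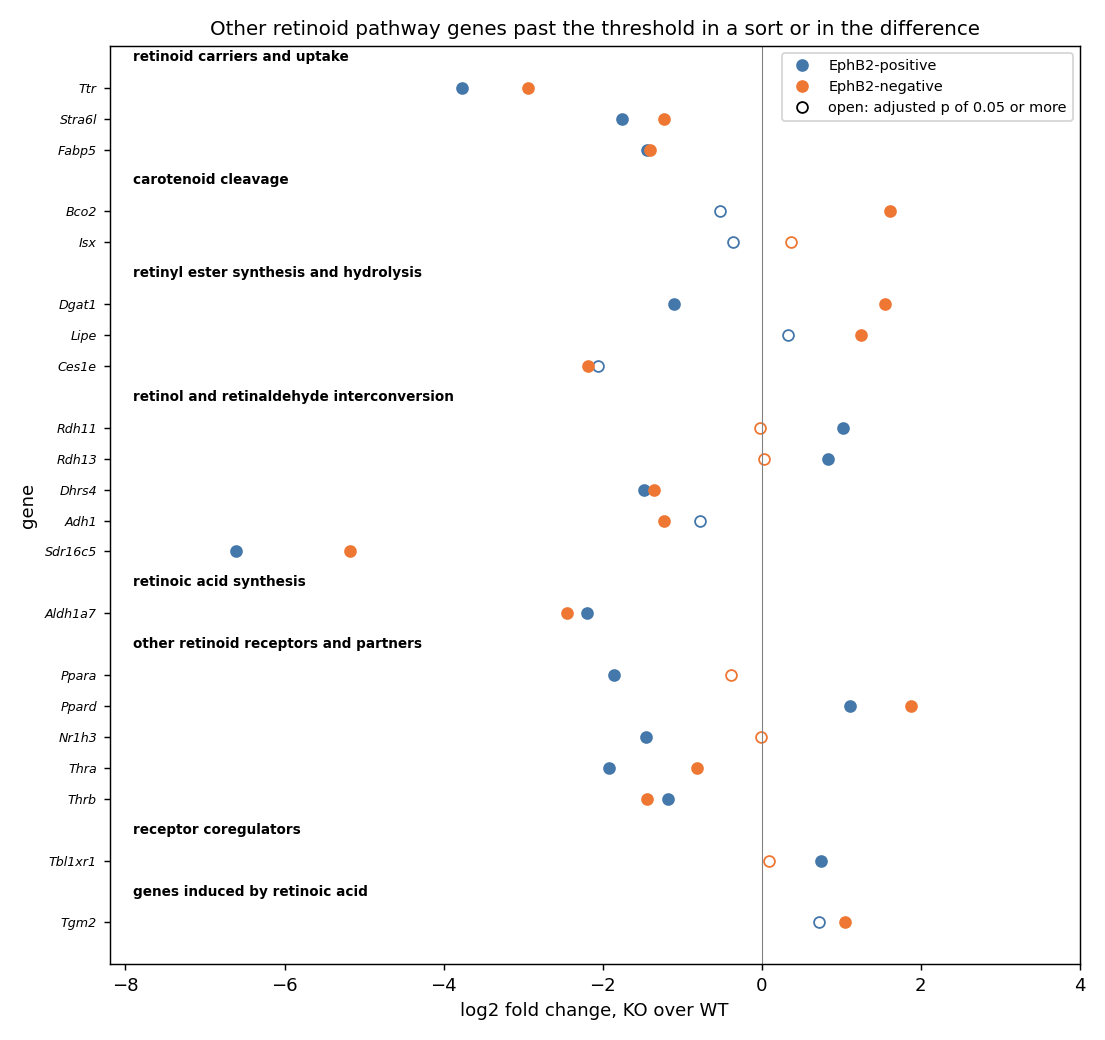
Log2 fold change of KO over WT for the genes of the other pathway lists that passed the test in either sort or in the difference between the sorts, ordered by role, in EphB2-positive (blue) and EphB2-negative (orange) cells, filled where the adjusted p is under 0.05. Ttr, Stra6l, Fabp5, Dhrs4, Sdr16c5, Aldh1a7, Thra and Thrb are filled left of 0 in both sorts, Ppard is filled right of 0 in both, and Dgat1 is filled on opposite sides; the fitted value of Sdr16c5 in EphB2-positive cells, where KO has 0 reads, depends on the prior count.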

How the data were processed

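RNA-seq counts of 9 libraries were used. The submitters' processing notes name the build mm10 and the tools CASAVA 1.4, FastQC, Bowtie2, HTSeq and DESeq2, without their roles. The deposited values are whole-number read counts per gene symbol, with the annotation and strand setting not given in the sources used here. Per the labels' protocols, cells were dissociated and sorted on EphB2, and cDNA was amplified by PCR, with no molecular identifiers named, so intervals and floors cover counting error only. Reads outside genes (11.9% to 16.8% of a library) stayed out of all sums.

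All libraries were fitted together in edgeR 4.0.16 (R 4.3.3): filterByExpr by group, TMM scaling, 4 group means, 5 residual degrees of freedom and the robust two-sided quasi-likelihood F test, with Benjamini-Hochberg adjustment over 11577 genes and a threshold of 0.05. Each SE was the absolute log2 fold change divided by the root of its F value. CPM (counts per 1000000 TMM-scaled reads) are given as mean ± SD over libraries. CPM per kb use the exon union of GENCODE models on GRCm38. The workflow was tested on simulated data.

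Alternatives were DESeq2's size factors, no filter, a filter of 5 CPM in 2 libraries, DESeq2 1.42.0, the compared groups alone, blocks on replicate numbers or on a code in the file names, and leaving out each library. The 10 genes and the lists were chosen with earlier results of these data known. Named are the 10 genes, pathway genes past the threshold in a genotype comparison or its difference, and otherwise up to 2 per list of lowest p. Values of 1 pathway gene counted in the lists are not reported here. The planned naming of genes with like patterns was not used. Transcript identity was computed with Biopython 1.88, with Python 3.11.15 and matplotlib 3.10.9 for figures.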

Additional observations from a re-analysis of the deposited data

Results flagged for a closer look

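The effect of genotype on Retsat differed between the sorts by the direct test of the difference, at 1.16 ± 0.28 (SE) on the log2 scale (EphB2-positive minus EphB2-negative, edgeR adjusted p = 0.0289): its level fell less in KO EphB2-positive than in KO EphB2-negative cells. The call was lost under 8 of 15 alternatives, among them leaving out any 1 of the 7 libraries other than the WT EphB2-negative ones and the block on the code in the file names (adjusted p up to 0.101).

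The same test was passed by Rxra, with a difference of -1.23 ± 0.23 (edgeR adjusted p = 0.0145): it was lower in KO than in WT among EphB2-positive cells, and its KO mean lay above the WT mean among EphB2-negative cells without passing the test there. The call was lost under 2 of 15 alternatives, without WT EphB2-positive replicate 2 or KO EphB2-negative replicate 2 (adjusted p = 0.0743 and 0.0786).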

How the results depend on the processing

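Of the 611 values of the 8 tested genes under an alternative, 538 kept their side of the threshold, 56 lost the call, 17 gained one and 0 reversed a called direction. Of the 538, 18 changed sign without a call: Rxra in the WT sort comparison (8), Rara (7) and Rdh7 (1) in the KO sort comparison, Rbp2 in EphB2-positive cells (1) and the Rdh7 difference (1). With the compared groups fitted alone, 2 genes were called in KO against WT EphB2-negative cells (4 in the main analysis) and 0 in the WT sort comparison (3 in the main analysis), with 6 at an unadjusted p under 0.05 in edgeR. Leaving out 1 library at a time, the genes called ranged from 1 to 7 for KO against WT in EphB2-positive cells, from 2 to 5 in EphB2-negative cells, from 0 to 6 for the sorts in WT, from 3 to 4 for the sorts in KO and from 0 to 2 for the difference. Where a group was left with 1 library, that library was assumed to vary like the others. The 0 for the difference came without WT EphB2-positive replicate 2 or KO EphB2-negative replicate 2, each with 2 genes at an unadjusted p under 0.05 in edgeR. DESeq2 called 4, 4, 3, 4 and 2 genes.

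The labels do not tie same-numbered libraries to an animal. The correlation of their deviations from the group means was 0.13 for the WT sorts and 0.04 and -0.07 for the KO sorts. In WT the same-numbered libraries also share the code in the file names, so number and code cannot be told apart there. By that code, whose meaning the labels do not give, the WT value was thus the same 0.13, and the KO sorts had 0.07 and 0.11. With the replicate block on the numbers in the titles, 4, 5, 3, 4 and 2 genes were called in the order of comparisons above, Retsat in EphB2-positive cells was lost (adjusted p = 0.123) and Rbp2 in EphB2-negative cells gained (adjusted p = 0.027); over all genes the block called 1055 against 1746 for KO against WT in EphB2-positive cells and 895 against 1430 for the difference. With the replicate block on the code in the file names, 5 genes were called in the WT sort comparison, and for the difference Retsat was lost (adjusted p = 0.0685) and Rbp2 gained (-2.05, adjusted p = 0.0225). The title-number block also ended the EphB2-positive call of Nr1h3 in KO against WT (adjusted p = 0.0547). The next counts are for EphB2-positive against EphB2-negative cells in WT. Over all genes, that comparison had 513 calls, 1 with the compared groups alone, 0 without WT EphB2-positive replicate 1 (2052 at an unadjusted p under 0.05 in edgeR) and 5009 without WT EphB2-negative replicate 1. It had 976 calls with DESeq2 and 1248 with the block on the file code. KO against WT had 3734 calls in EphB2-positive cells with the compared groups alone (568 to 3479 leaving out 1 library) and, in EphB2-negative cells, 149 against 3456 (1096 to 5834 leaving out 1 library), and the difference had 32 to 3996 calls leaving out 1 library. No scaling tried moved the median of all genes by over 0.1. Depth limits Lrat, Rdh7, Aldh1a2 and Rarb, whose KO libraries held 0 to 8 reads each.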
